A study of Homo sapiens with 15 samples.

Results

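The UGT2B genes encode UDP-glucuronosyltransferases, and they were taken as every row of the LNCaP expression table whose gene name starts with UGT2B. The rule found 10 rows among 17272 genes. Of these, 7 are protein-coding genes (UGT2B4, UGT2B7, UGT2B10, UGT2B11, UGT2B15, UGT2B17 and UGT2B28) and 3 are pseudogenes (UGT2B24P, UGT2B25P and UGT2B27P). RNA sequencing was performed on 5 libraries of LNCaP cells that received 1 nM R1881 together with 2 µM darolutamide and on 10 libraries of cells that received 1 nM R1881 with the solvent DMSO. LNCaP is an androgen-sensitive line of prostate cancer cells, R1881 is a synthetic androgen, and darolutamide is an antiandrogen used against prostate cancer. All cells had first spent 2 days in medium with charcoal-stripped serum, which is poor in steroids, and all were collected at 22 h, so that both groups had androgen and cells without R1881 were not analysed here.

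UDP-glucuronosyltransferases sit in the membrane of the endoplasmic reticulum and attach glucuronic acid to small fat-soluble molecules, which makes them soluble in water and ready for export. UGT2B15 and UGT2B17 are best known for conjugating dihydrotestosterone and its metabolite androstanediol, a step that inactivates androgens inside prostate cells. Both are known in LNCaP cells as genes that androgen lowers. UGT2B28 also conjugates steroids, UGT2B7 is the main enzyme for morphine, UGT2B10 conjugates nicotine and other amines, and UGT2B4 acts on bile acids.

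Of the 10 genes, 8 passed the test with darolutamide, in opposite directions. UGT2B17 and UGT2B15, the most abundant members, were 3.58 and 3.69 times as high with R1881 and darolutamide as with R1881 alone. UGT2B11 and UGT2B28 were lower, at 0.309 and 0.205 times their level with R1881 alone, and all 3 pseudogenes were lower with them. UGT2B10 and UGT2B4 did not pass the test. Expression is given as CPM, that is, reads per gene scaled to the depth of the library, and differences were tested with limma on log2(CPM + 0.5) over all genes with Benjamini-Hochberg adjustment. By that test 3 members were higher and 5 were lower at an adjusted p under 0.05, while 22.8% of all 17272 genes were higher and 23.7% were lower. The counts of members are therefore read against a comparison in which 46.6% of the genes passed the test. The median log2 fold change was -0.49 over the 10 members and 0.00043 over all genes tested. In 7 of the 10 members no library of one group reached into the range of the other, as in 23.4% of all genes. By size, a log2 fold change at least as high as that of UGT2B17 was found in 0.185% of the genes and one at least as low as that of UGT2B28 in 0.289%. In RNA from whole cultures, more RNA per cell and more cells that express a gene cannot be told apart.

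**Figure D1:**
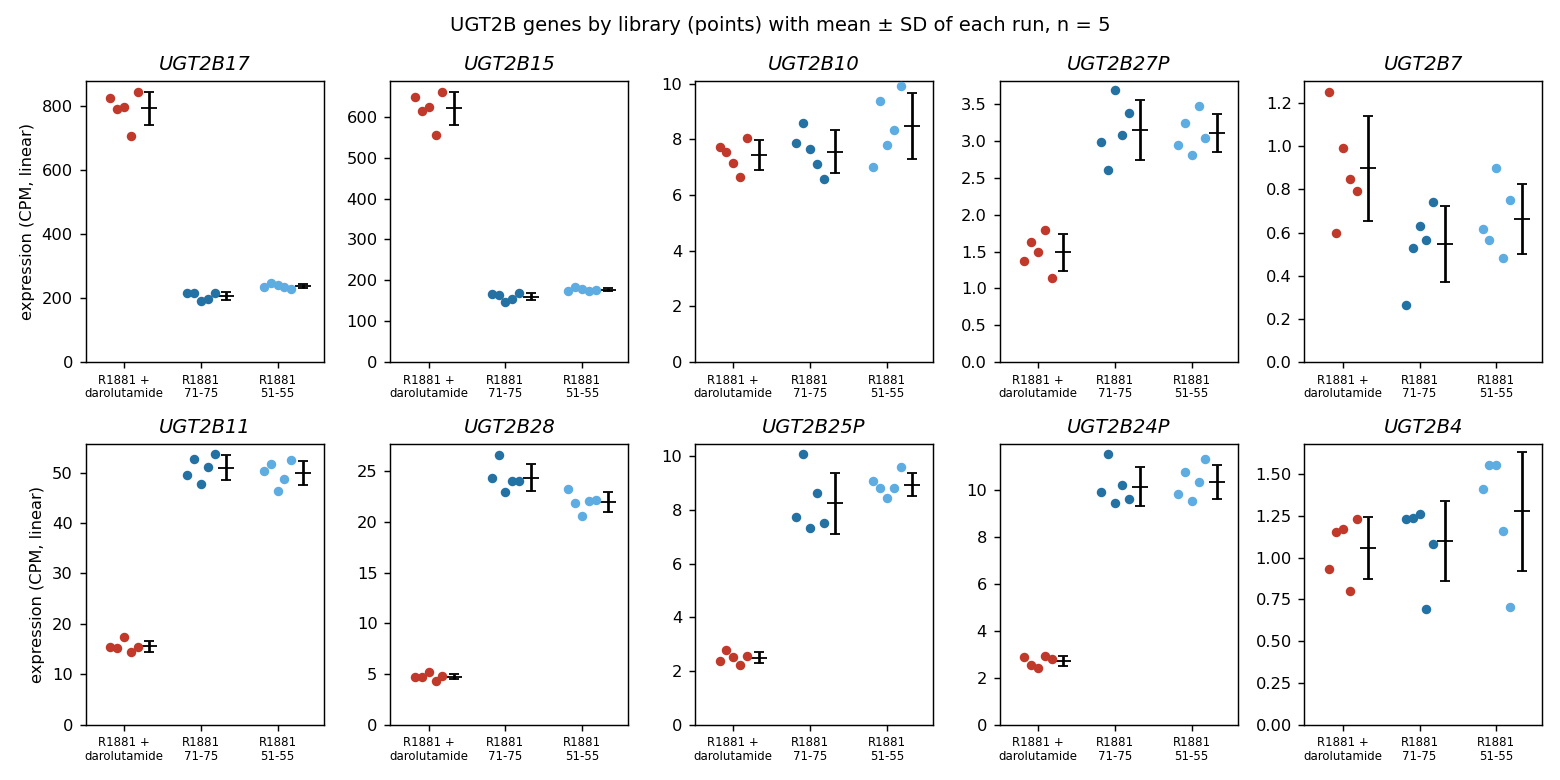
Expression in CPM (linear axis from 0) of the 10 UGT2B genes in chromosome order, in which a point is a library and bars give mean ± SD for each of the 3 runs of libraries (n = 5). UGT2B17 lies between 706 and 844 CPM with R1881 and darolutamide, above all R1881 libraries at 191 to 246 CPM, and UGT2B28 lies between 4.34 and 5.15 CPM, below all R1881 libraries at 20.5 to 26.6 CPM.

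The members lie together on the long arm of chromosome 4, in a cluster of 989 kb from 68537173 to 69526014 on GRCh38 by the GENCODE version 44 annotation. In the expression table they are consecutive rows. UGT2B17 (from 68537173 to 68576413, minus strand) and UGT2B15 (from 68646597 to 68670652, minus strand) are neighbors at one end. UGT2B10 (from 68815994 to 68832023, plus strand) comes next, followed by UGT2B27P and UGT2B7. UGT2B11 (from 69199951 to 69214748, minus strand), UGT2B28 (from 69280475 to 69295050, plus strand), UGT2B25P, UGT2B24P and UGT2B4 complete the row. The pair that rose most is thus at one end, whereas the 5 genes that fell lie beyond UGT2B10, with UGT2B7 among them and UGT2B4 at the far end.

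**Figure D2:**
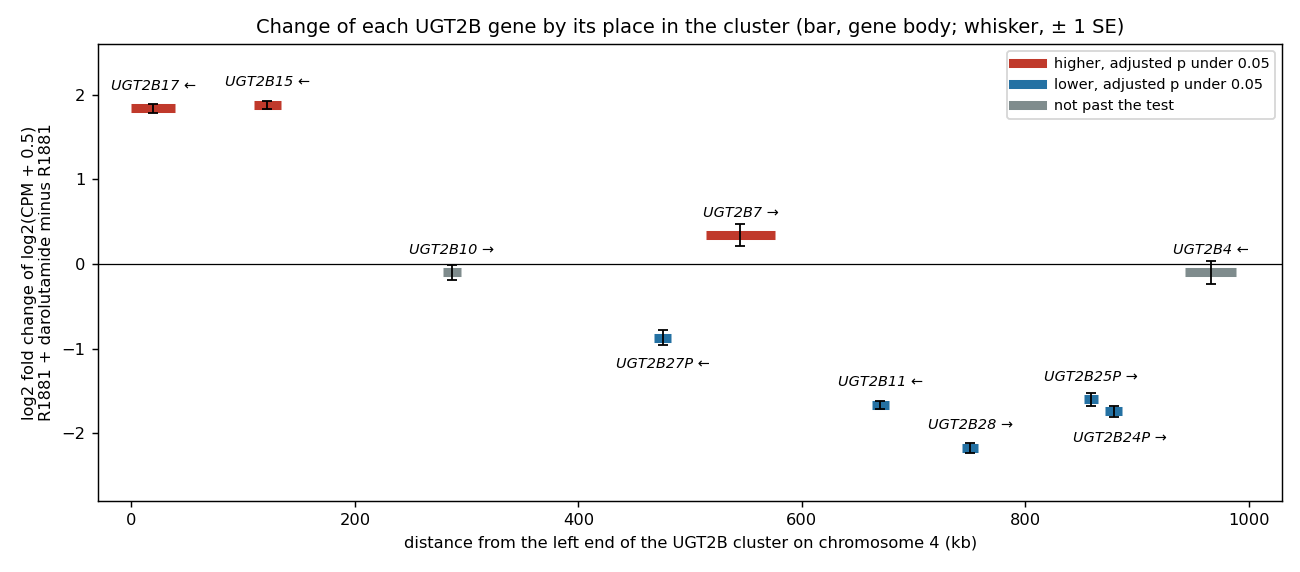
Log2 fold change (R1881 and darolutamide minus R1881, on log2(CPM + 0.5)) of each UGT2B gene against its distance in kb from the left end of the cluster on chromosome 4. Bars span the gene body, whiskers are ± 1 standard error, and arrows give the strand. UGT2B17 and UGT2B15 are at 1.84 and 1.88, whereas the lowest gene, UGT2B28, is at -2.17.

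The paralogs are close in sequence, which bears on how 50-base reads can be assigned to them. Over the coding sequence, UGT2B15 and UGT2B17 are 96.5% identical and UGT2B11 and UGT2B28 are 97.04% identical. UGT2B10 is 95.01% identical to UGT2B11 and 94.3% identical to UGT2B28. UGT2B15 and UGT2B17 are less like the other coding members, at 83.9% to 85.7%. Every exon was therefore cut into all possible windows of 50 bases, and each window was searched for in the assembled chromosomes of GRCh38. Alternate and unplaced sequences were not searched, and windows across exon junctions were not made. In UGT2B17, 79.2% of 2229 windows occur once in these chromosomes, and in UGT2B15, 74.5% of 1840 windows do. The pair share 429 identical windows with each other. UGT2B15 shares 0 windows with any of the other 8 members, and UGT2B17 shares 3 each with UGT2B4, UGT2B10 and UGT2B11. The share found once is 58.5% in UGT2B11, 66.2% in UGT2B28, 39.9% in UGT2B25P and 51.0% in UGT2B24P, which are the 4 lowest shares. UGT2B11 shares 383 windows with UGT2B25P and 342 with UGT2B28. How the division of reads within these 2 groups affected the values of single genes was not tested, and whether reads that match more than 1 place were counted is not given in the sources used here. Reads from identical windows of UGT2B15 and UGT2B17 could be exchanged within that pair, but the pair and the lower genes have nearly no window in common.

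**Figure D3:**
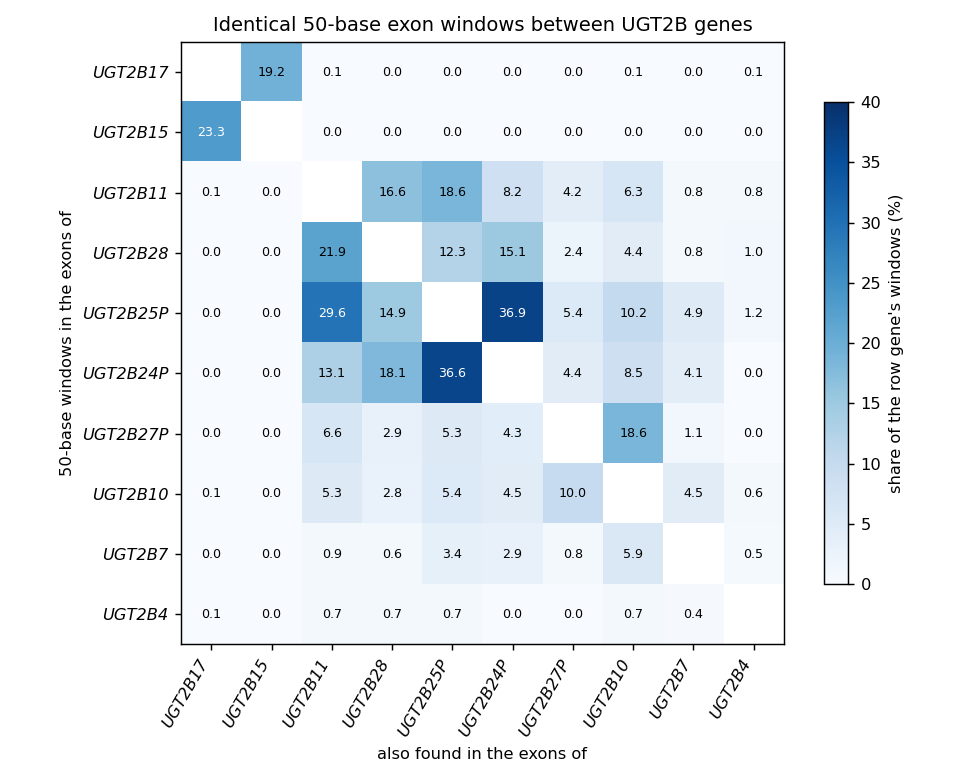
Share (in %) of the 50-base exon windows of each UGT2B gene (rows) that also occur in the exons of another member (columns). UGT2B15 has 23.3% of its windows in common with UGT2B17 and 0 with the other 8 members, while UGT2B25P and UGT2B24P have 36.9% and 36.6% in common with each other.

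The promoters of members that moved in different ways are shown to compare what lies in front of them. RefSeq promoter sequences (GRCh38.p14) were matched for 4 of the 10 members, and the 250 bases before each transcription start are printed 5′ to 3′ on the strand of the gene. The windows are chr4:68670653-68670902 (minus strand) for UGT2B15, which rose, chr4:69214749-69214998 (minus strand) for UGT2B11, which fell, chr4:68815744-68815993 (plus strand) for UGT2B10, which did not pass the test, and chr4:69096224-69096473 (plus strand) for UGT2B7. Capitals mark matches to GTAAACA or ATAAACA, which are motifs that forkhead factors such as FOXA1 bind.
UGT2B15: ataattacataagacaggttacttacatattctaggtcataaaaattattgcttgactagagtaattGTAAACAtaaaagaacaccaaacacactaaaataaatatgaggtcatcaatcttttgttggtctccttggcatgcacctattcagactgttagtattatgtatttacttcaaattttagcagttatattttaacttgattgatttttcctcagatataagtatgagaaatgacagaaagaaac
UGT2B11: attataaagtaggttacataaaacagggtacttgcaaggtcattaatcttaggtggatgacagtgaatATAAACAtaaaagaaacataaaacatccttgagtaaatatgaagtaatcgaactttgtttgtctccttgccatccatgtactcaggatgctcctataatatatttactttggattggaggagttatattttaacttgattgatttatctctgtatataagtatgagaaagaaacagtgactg
UGT2B10: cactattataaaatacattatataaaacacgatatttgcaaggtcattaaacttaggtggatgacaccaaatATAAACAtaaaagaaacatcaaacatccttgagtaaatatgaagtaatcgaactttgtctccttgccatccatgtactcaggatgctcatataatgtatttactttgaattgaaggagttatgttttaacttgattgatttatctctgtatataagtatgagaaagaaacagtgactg
UGT2B7: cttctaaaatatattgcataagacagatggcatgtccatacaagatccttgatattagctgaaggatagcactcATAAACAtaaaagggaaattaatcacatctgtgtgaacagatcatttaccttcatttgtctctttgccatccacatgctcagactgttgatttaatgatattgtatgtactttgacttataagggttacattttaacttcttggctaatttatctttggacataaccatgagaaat
The promoters of UGT2B10 and UGT2B11 are 93.1% identical over 246 aligned bases, although only UGT2B11 passed the test. UGT2B15 is 78.1% identical to UGT2B11 and 77.7% to UGT2B10, and UGT2B7 is 67.4% to 70.0% identical to the other 3. Both strands were searched, and all matches in these promoters lay on the strand of the gene. GTAAACA was found in UGT2B15, at 183 to 177 bases before the start, and in 2.98% of 35116 promoters of the same length. ATAAACA was found in UGT2B11 (182 to 176 bases before the start), UGT2B10 (178 to 172) and UGT2B7 (176 to 170), and in 3.77% of all promoters. These matches describe letters in a window and not bound sites.

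UGT2B17 and UGT2B15, the enzymes of dihydrotestosterone conjugation, rose in all 5 libraries with darolutamide. UGT2B17 was 791, 826, 844, 706 and 796 CPM in replicates 1 to 5 with R1881 and darolutamide, against 191 CPM at the lowest, 222 CPM at the median and 246 CPM at the highest of the 10 R1881 libraries. The groups did not overlap, and replicate 4 was the lowest of those with darolutamide. The means were 793 ± 53.0 CPM with darolutamide (SD, n = 5) and 222 ± 18.1 CPM with R1881 alone (SD, n = 10), which gave a log2 fold change of 1.84 ± 0.058 (SE) and a limma adjusted p of 2.18e-14. UGT2B15 was 616, 649.7, 661, 555 and 624 CPM in the same 5 libraries, against 147, 170.4 and 184 CPM at the lowest, median and highest with R1881 alone. Again the groups did not overlap, and the same replicates 3 and 4 were the highest and the lowest. The means were 621 ± 41.1 CPM and 169 ± 11.3 CPM, which gave a log2 fold change of 1.88 ± 0.051 (SE) and a limma adjusted p of 2.82e-15. These values rest on 11780 to 20420 reads per gene and library with darolutamide and on 2452 to 5321 reads with R1881 alone.

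The sum of UGT2B15 and UGT2B17, which does not depend on how shared reads were divided between them, was 1414 ± 94.0 CPM with darolutamide and 390.2 ± 29.2 CPM with R1881 alone. It ranged from 1262 to 1505 CPM and from 338 to 431 CPM, so the summed values did not overlap either. All UGT2B rows together took 0.143% ± 0.011 of the reads with darolutamide (SD, n = 5) and 0.0465% ± 0.0026 with R1881 alone (SD, n = 10). Most of the family's RNA thus came from the pair in both groups.

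UGT2B11 and UGT2B28 fell in all 5 libraries with darolutamide. UGT2B28, a steroid-conjugating enzyme, was 4.75, 4.69, 4.80, 4.34 and 5.15 CPM in replicates 1 to 5 with darolutamide, against 20.5, 23.1 and 26.6 CPM at the lowest, median and highest with R1881 alone. The groups lay far apart, with 4.74 ± 0.29 CPM (SD, n = 5) and 23.2 ± 1.68 CPM (SD, n = 10), which gave the lowest log2 fold change of the family, -2.17 ± 0.059 (SE), with a limma adjusted p of 2.69e-15. UGT2B11, for which substrates are less well defined, was 15.2, 15.4, 15.4, 14.4 and 17.4 CPM with darolutamide, against 46.4, 50.7 and 53.8 CPM with R1881 alone. Its means were 15.6 ± 1.075 CPM and 50.5 ± 2.34 CPM, which gave a log2 fold change of -1.67 ± 0.046 (SE) and a limma adjusted p of 3.75e-15. A noncoding gene on the opposite strand overlaps UGT2B11 in GENCODE, and the library kit keeps the strand of the RNA, but whether the counting used it is not given in the sources used here. UGT2B28 has no overlapping gene in that annotation, and its reads numbered 92 to 119 per library with darolutamide and 343 to 602 with R1881 alone.

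The pseudogenes fell with UGT2B11 and UGT2B28. Pseudogenes are copies that no longer encode a working enzyme. UGT2B24P was 2.39 to 2.92 CPM with darolutamide and 9.41 to 11.5 CPM with R1881 alone (log2 fold change -1.74 ± 0.065 (SE), limma adjusted p = 2.21e-13). UGT2B25P was 2.22 to 2.79 CPM with darolutamide and 7.34 to 10.1 CPM with R1881 alone (log2 fold change -1.60 ± 0.078 (SE), limma adjusted p = 1.03e-11). UGT2B27P moved least, with 1.14 to 1.79 CPM against 2.61 to 3.69 CPM (log2 fold change -0.87 ± 0.089 (SE), limma adjusted p = 2.67e-07). None of the 3 had overlapping groups. UGT2B25P and UGT2B24P share 477 windows with each other and, with UGT2B11, 383 and 170, so reads from those windows cannot be told apart between them, whereas UGT2B27P shares most with UGT2B10 (246 windows), which did not pass the test. The 5 lower genes, grouped after their values were seen, summed to 27.0 ± 1.18 CPM with darolutamide and 95.6 ± 4.33 CPM with R1881 alone.

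UGT2B10 and UGT2B4 did not pass the test and UGT2B7 was at its edge. UGT2B10 was 7.54, 7.72, 8.05, 6.65 and 7.14 CPM with darolutamide, against 6.56, 7.83 and 9.92 CPM at the lowest, median and highest with R1881 alone. All 5 libraries lay within the range of R1881, with a log2 fold change of -0.10 (95% interval -0.28 to 0.08, limma adjusted p = 0.384). UGT2B4, the enzyme for bile acids, was 0.802 to 1.23 CPM with darolutamide and 0.692 to 1.56 CPM with R1881 alone, on 11 to 33 reads per library, and overlaps the pseudogene UGT2A3P7 (log2 fold change -0.10, 95% interval -0.38 to 0.18, limma adjusted p = 0.575). UGT2B7 was 0.598, 1.25, 0.792, 0.849 and 0.994 CPM with darolutamide, against 0.264, 0.592 and 0.898 CPM with R1881 alone, and a pseudogene on the same strand overlaps it in GENCODE. These are 15 to 31 reads and 6 to 17 reads per library, the groups overlapped, and the log2 fold change of 0.34 (standard error 0.13) had an adjusted p of 0.0428 from limma. The call for UGT2B7 was lost under 15 of 24 alternatives, with adjusted p from 0.0194 to 0.171. Against either R1881 run alone it was 0.171 (libraries 51 to 55) and 0.0559 (libraries 71 to 75). Leaving out any 1 of replicates 2, 3, 4 and 5 with darolutamide or of R1881 replicates 1, 3, 5, 8, 9 and 10 also ended the call, and without replicate 2 with darolutamide, the highest library, adjusted p was 0.146.

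Per kb of exon, the order of the members differed between the groups. With darolutamide, UGT2B17 and UGT2B15 were at 308 ± 20.6 and 291 ± 19.2 CPM per kb (SD, n = 5), with UGT2B17 above UGT2B15 in all 5 libraries by 1.055 to 1.066 times, and UGT2B11 followed at 6.61 ± 0.46. UGT2B10 at 2.69 ± 0.20 and UGT2B28 at 2.56 ± 0.16 CPM per kb came next and did not differ beyond their spread, with UGT2B10 the higher in 4 of 5 libraries. With R1881 alone, UGT2B17 and UGT2B15 were at 86.2 ± 7.05 and 79.0 ± 5.28 CPM per kb (SD, n = 10), with UGT2B17 above UGT2B15 in all 10 libraries by 1.061 to 1.126 times, followed by UGT2B11 at 21.4 ± 0.99 and UGT2B28 at 12.5 ± 0.90. There UGT2B10, at 2.91 ± 0.38 CPM per kb, was below UGT2B24P at 6.40 ± 0.46 and UGT2B25P at 5.42 ± 0.56, both of which were below UGT2B10 with darolutamide, at 1.69 ± 0.14 and 1.57 ± 0.13, where these pseudogenes did not differ beyond their spread. UGT2B27P was 0.918 ± 0.153 CPM per kb with darolutamide and 1.93 ± 0.20 with R1881 alone. UGT2B4 and UGT2B7 were lowest in both groups and did not differ beyond their spread in the group with darolutamide, at 0.426 ± 0.074 and 0.397 ± 0.108 CPM per kb with darolutamide and at 0.478 ± 0.121 and 0.268 ± 0.076 with R1881 alone. Exon lengths are those of GENCODE version 44, which may differ from the annotation behind the counts. These lengths also include windows found more than once. The share found once was 79.2% in UGT2B17, 74.5% in UGT2B15, 78.0% in UGT2B10, 66.2% in UGT2B28, 51.0% in UGT2B24P and 39.9% in UGT2B25P. If reads with several matches were not counted, these unequal shares could alter the orders given here, also that of UGT2B17 and UGT2B15. This was not tested.

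The labels number the R1881 libraries 51 to 55 and 71 to 75 and those with darolutamide 86 to 90, so that no run of numbers holds both treatments, and treatment and run cannot be told apart. The difference between the R1881 runs was therefore measured for the same genes. UGT2B17 was 207 ± 11.7 CPM in libraries 71 to 75 and 237 ± 6.69 CPM in libraries 51 to 55 (SD, n = 5 each), a log2 difference of -0.20 (standard error 0.041, limma adjusted p = 0.0244). It was the only member past the test, as the count was 1 lower and 0 higher of 10, while 2.29% of all genes were lower, 0.805% were higher and 3.1% were either. The call was lost without any of 4 R1881 libraries (replicates 5, 7, 9 and 10). UGT2B15 was 160 ± 8.80 and 177 ± 4.52 CPM (log2 difference -0.15, limma adjusted p = 0.0561), and for both genes libraries 71 to 75 all lay below libraries 51 to 55, as was so for 4.71% of all genes (6.61% in either direction). UGT2B28 was 24.4 ± 1.35 and 22.0 ± 0.98 CPM (log2 difference 0.15, limma adjusted p = 0.143). Against libraries 71 to 75 alone, the log2 fold change with darolutamide was 1.94 for UGT2B17 and -2.25 for UGT2B28, and against libraries 51 to 55 alone it was 1.74 and -2.10.

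**Figure D4:**
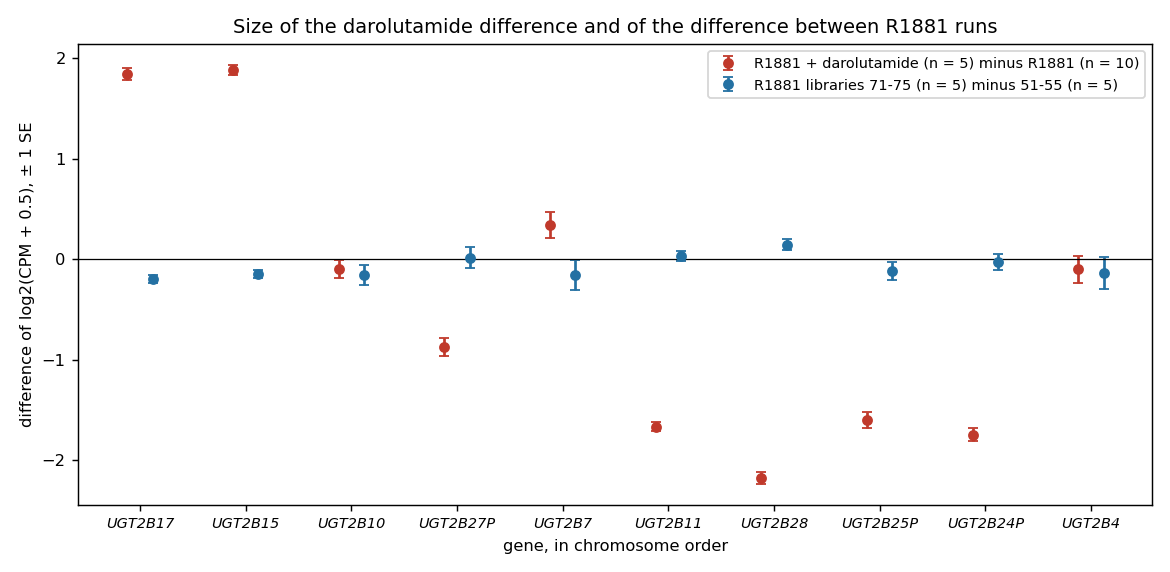
Difference of log2(CPM + 0.5), with ± 1 standard error, for each UGT2B gene in chromosome order, between R1881 and darolutamide (n = 5) and R1881 (n = 10) and between R1881 libraries 71 to 75 and 51 to 55 (n = 5 each). The differences between the R1881 runs lie between -0.20 and 0.15, while those with darolutamide reach from -2.17 to 1.88.

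The libraries held 21870398 to 25317567 reads with darolutamide and 15830745 to 24316740 reads with R1881 alone. KLK3, which encodes PSA, and FKBP5, a co-chaperone of steroid receptors, are androgen-induced genes that check the treatment, and their log2 fold changes were -1.36 and -3.30. All 8 luminal prostate markers were in the table, of which 1 was higher and 6 were lower with darolutamide. Over all genes, 22.8% were higher and 23.7% were lower. The markers with the smallest p were TMPRSS2, KRT18 and KLK2, with log2 fold changes of -1.62, -1.82 and -1.94. KRT8 fell most, at -2.10, and FOLH1 was the higher marker, at 0.75, both named after their values were seen. Of 3 basal markers only KRT14 was listed, at 0.624 CPM with darolutamide and 1.02 CPM with R1881 alone. It was called lower (limma adjusted p = 0.00846), a call lost without libraries 89 and 90. The liver is rich in UGT2B enzymes, and of 7 hepatocyte markers TTR and CYP2E1, the second named after its values were seen, were listed. Their summed level was 6.79 to 8.25 CPM with darolutamide and 5.42 to 7.37 CPM with R1881 alone. TTR was called higher (limma adjusted p = 0.0407), a call lost under 13 of 25 alternatives, and CYP2E1 did not pass the test. ALB, APOA1, APOC3, SERPINA1 and CYP3A4 were not analysed here. The 20 most abundant genes took 7.33% to 8.12% of reads with darolutamide against 6.47% to 6.80% with R1881 alone. All 3 listed fibroblast markers of 6 were higher with darolutamide (summed level 13.5 to 30.6 CPM against 6.36 to 10.5 CPM with R1881 alone). LUM, named after its values were seen, had only 0.359 to 0.633 CPM against 0.0879 to 0.309 CPM, and kept its call under the 24 alternatives that gave it a value. Of these markers COL3A1 was called under all 25 alternatives, whereas COL1A1, at 5.55 to 20.6 CPM and 4.38 to 8.43 CPM, lost its call under 13 of 25, among them the replicate block, either R1881 run alone and leaving out any 1 of replicates 1, 4 and 5 with darolutamide or of R1881 replicates 2, 3, 4, 7, 8, 9 and 10. The part of these markers and of the most abundant genes in the results was not tested. Libraries 89 and 90 (replicates 4 and 3 with darolutamide) gave the lowest and the highest values of UGT2B17 and UGT2B15, and without both the log2 fold change was 1.86 and 1.90. With darolutamide 3946 genes were higher and 4098 were lower in the deposited scaling, and 5326 and 3030 after scaling to equal totals, which shifted the median of all genes by 0.066 on the log2 scale. The UGT2B genes gave 3 higher and 5 lower under both, and edgeR on the recovered reads called 4106 genes higher and 3943 lower.

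Genes that serve the conjugation step were counted next. Over all 17272 genes, 22.8% were higher and 23.7% were lower, which stands beside the counts of this and the following lists. The lists are short, and no test of a list was run. UDP-glucuronosyltransferases need UDP-glucuronic acid, which is made from glucose phosphates in the cytosol. Of 6 genes that make or use UDP-glucuronic acid or its precursors, 5 were in the table, with 3 lower, 0 higher and 2 not past the test (median log2 fold change -0.12). The 2 were UGP2, which makes UDP-glucose, and UXS1, which consumes UDP-glucuronic acid, both named after their values were seen. UGDH, the dehydrogenase that makes UDP-glucuronic acid, was 77.0 ± 5.42 CPM with darolutamide (SD, n = 5) and 104 ± 2.08 CPM with R1881 alone (SD, n = 10), a log2 fold change of -0.44 (limma adjusted p = 2.83e-08). The phosphoglucomutases PGM2 and PGM1 had log2 fold changes of -0.79 and -0.12. The call of PGM1 was lost under 4 of 25 alternatives (scaling to equal totals, R1881 libraries 71 to 75 alone, the replicate block, and without libraries 89 and 90), and with scaling to equal totals UXS1 was higher. UGDH thus fell in the libraries in which UGT2B15 and UGT2B17 rose.

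Of 6 genes that export or split glucuronides, 4 were in the table, with 2 lower and 2 higher (median log2 fold change -0.52). ABCC4 and ABCC1, exporters of conjugated compounds, were lower: ABCC4 was 443 ± 27.6 CPM with darolutamide and 1086 ± 53.1 CPM with R1881 alone (log2 fold change -1.29), and ABCC1 was 125 ± 11.5 and 286 ± 11.7 CPM (log2 fold change -1.19). ABCG2, another exporter of conjugates, was 2.63 to 2.87 CPM with darolutamide and 0.252 to 1.014 CPM with R1881 alone (log2 fold change 1.71). GUSB, the lysosomal beta-glucuronidase that removes glucuronic acid, was 63.2 ± 4.29 and 57.1 ± 2.20 CPM (log2 fold change 0.14, limma adjusted p = 0.00852). The call of GUSB was lost against R1881 libraries 71 to 75 alone and with the replicate block.

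Sulfation is the other main route of steroid conjugation. Of 7 genes listed for it, 4 were in the table, with 2 lower and 1 higher (median log2 fold change -0.26). PAPSS1, which makes the sulfate donor, had a log2 fold change of -0.54, and STS, the sulfatase that frees steroids, had -0.59. SULT2B1, a hydroxysteroid sulfotransferase, had 0.41 (limma adjusted p = 0.0426), a call that was lost under 13 of 25 alternatives, among them leaving out any 1 of replicates 1, 2, 4 and 5 with darolutamide or of R1881 replicates 1, 2, 3, 8, 9 and 10. Of 15 genes of other glycosyltransferase families related to UGT2B, only UGT8, a ceramide galactosyltransferase named after its value was seen, was in the table, at 0.852 ± 0.088 and 0.627 ± 0.228 CPM (limma adjusted p = 0.0935), and the UGT1A genes were not analysed here.

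Of 10 known regulators of UGT2B genes, 4 were in the table, with 1 higher, 1 lower and 2 that did not pass the test (median log2 fold change 0.0071). POU2F1, a POU-domain factor, had a log2 fold change of 0.39, and PPARA, a fatty acid receptor, had -0.35. FOXA1, a forkhead factor that opens chromatin in prostate cells, was 384 ± 11.4 and 378 ± 15.1 CPM (log2 fold change 0.02, limma adjusted p = 0.627), and it was called higher after scaling to equal totals.

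GENCODE places 35 other genes inside the cluster, of which 0 are in the table under their GENCODE name. Rows under other names were not searched for. The nearest protein-coding genes of the table on either side were TMPRSS11E and ODAM. TMPRSS11E, a transmembrane serine protease 39.6 kb from UGT2B17, was 2.07 ± 0.11 CPM with darolutamide and 3.05 ± 0.31 CPM with R1881 alone (log2 fold change -0.46, limma adjusted p = 6.02e-05), opposite in direction to its neighbor. ODAM, 669.7 kb beyond UGT2B4, and UTP3, farther out on that side, had log2 fold changes of 0.64 and -0.26. YTHDC1, a reader of methylated RNA beyond TMPRSS11E, was 86.5 ± 5.58 and 87.2 ± 6.56 CPM (limma adjusted p = 0.896).

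Genes with a pattern most like the pair were sought among those with a mean of at least 1 CPM, by Pearson correlation of log2(CPM + 0.5) over the 15 libraries, which fall into 2 groups and share their scaling. LRRN1 was closest to both, with 0.999 for UGT2B17 and 0.999 for UGT2B15. For UGT2B17, ATG3, DSEL, FAM198B and OPRK1 followed, and for UGT2B15, OPRK1, FAM198B, ATG3 and CALD1. After the group means were removed, the correlation was 0.870 to 0.919 for the 5 genes nearest to UGT2B17 and 0.827 to 0.888 for those nearest to UGT2B15. These deviations still hold the difference between the R1881 runs, and the genes were picked from the same libraries. LRRN1, a leucine-rich repeat membrane protein, was 176 CPM with darolutamide and 31.1 CPM with R1881 alone, and OPRK1, the kappa opioid receptor, was 70.1 and 11.9 CPM.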

How the data were processed

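RNA sequencing values of 15 LNCaP libraries were analysed. Per the study's methods and the submitters' processing notes, the authors demultiplexed 50-base single-end reads with bcl2fastq 2.17, aligned them to GRCh38 with STAR and counted them per gene with featureCounts of the Subread package. The versions of these aligning and counting tools, the annotation, the handling of reads with several matches and any scaling beyond CPM are not given in the sources used here. The authors deposited a scaled signal, called CPM here. In each library 100% of the values were whole reads (tolerance 0.001 reads) divided by 1 factor. Library sums differed between the groups without overlap, at 1005400 to 1031220 with darolutamide and 1053410 to 1078570 with R1881 alone. Groups follow the sample labels, although the study's methods state the opposite group sizes and a different R1881 concentration. The study's methods call the libraries biological replicates, and the labels do not say which came from separate cultures.

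limma (version 3.58.1, with trend) was fitted to log2(CPM + 0.5) over 17272 genes with no filter, and p-values were Benjamini-Hochberg adjusted over all genes. edgeR (4.0.16) and DESeq2 (1.42.0) were run on the recovered reads as alternatives. Each tool was also run on counts simulated with the spread of these libraries. The simulation held no difference between runs, so it cannot address the run of libraries that each treatment had. The members, gene lists, sums and comparisons were chosen with earlier results of these data known. Named were all members, the called genes of each list that averaged 1 CPM or more in either group (at most 3, by smallest p), UGDH, GUSB and FOXA1, KLK3 and FKBP5, the nearest neighbors of the cluster, and the 5 genes most like each of the 2 most abundant members; others are marked as named after their values were seen. List genes were matched by current and older symbols, and some items are not reported here. Exon windows of 50 bases from GENCODE version 44 were searched in the assembled chromosomes of GRCh38 on both strands without mismatch.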

Additional observations from a re-analysis of the deposited data

How the results depend on the processing

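Under 25 alternatives, 5 UGT2B genes were lower and 2 or 3 were higher with darolutamide, the difference being UGT2B7. The log2 fold change was 1.74 to 1.94 for UGT2B17, 1.80 to 1.95 for UGT2B15, -1.70 to -1.60 for UGT2B11 and -2.28 to -2.07 for UGT2B28, with each of these 4 past the test under all 25. The alternatives were pseudocounts of 0.1 and 1, a minimum mean of 1 CPM, edgeR and DESeq2 on recovered reads, scaling by library totals, either R1881 run alone, the replicate number as a block, each library left out and, chosen after the data were seen, leaving out libraries 89 and 90. With the replicate block, UGT2B17 was at 1.86 and UGT2B28 at -2.18, and no call of a UGT2B gene changed. UGT2B4 changed sign to 0.091 without passing the test (adjusted p = 0.624 from limma). Replicate numbers 6 to 10 occur only with R1881 alone, so with the block the difference rests on replicates 1 to 5 of each group. In the pathway lists the calls of PGM1, GUSB and SULT2B1 were lost with the block. Libraries share a number only: their deviations from the group means correlated at -0.139 to 0.335, and 1 of 5 libraries with darolutamide correlated best with its own number. Between the R1881 runs, 1 member was lower, 2 were with DESeq2 and 2 with scaling by library totals, and 0 to 2 with a library left out, with UGT2B15 added without R1881 replicate 3. In that comparison the log2 difference of UGT2B27P lay between -0.04 and 0.068 and that of UGT2B24P between -0.074 and 0.002 with a library left out, none past the test. The log2 ratio of the summed 5 lower genes was -1.82 and with scaling by library totals -1.75. With DESeq2, UGT2B7 had an adjusted p of 0.0623, within 0.0194 to 0.171 over its alternatives, and it got no value under the minimum of 1 CPM. UGT2B7 and UGT2B4 had 6 to 33 reads per library and the other members at least 26.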

Other observations

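Ratios between members within a library, which do not depend on the scaling of that library, are given for 4 pairs of members. UGT2B15 divided by UGT2B11 was 35.98 to 42.8 with darolutamide and 3.02 to 3.83 with R1881 alone. UGT2B11 divided by UGT2B10, whose promoters are the most alike of the 4 that were compared, was 1.92 to 2.43 with darolutamide and 5.28 to 8.20 with R1881 alone. UGT2B11 divided by UGT2B28 was 3.28 ± 0.068 with darolutamide (SD, n = 5) and 2.18 ± 0.13 with R1881 alone (SD, n = 10), so UGT2B28 lost the larger share. UGT2B17 divided by UGT2B15 was 1.27 to 1.28 with darolutamide and 1.28 to 1.36 with R1881 alone, and this ratio alone overlapped between the groups. These ratios of members were chosen after their values were seen and are given without a test. In 36 groups of values examined for a library far from the others, over the members, their sums and these ratios, 0 were found, where chance gives about 1 in 20 groups.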
